A study of Mus musculus with 11 samples.

Results

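Collagens are the main structural proteins of the extracellular matrix, and the mouse genome encodes their chains in a large set of separate genes named by type and chain. All genes whose symbol has the form Col, number, a, number were taken from the deposited expression tables, which gave 44 of 46469 symbols. They were followed in mouse embryonic fibroblasts that carried an intact Actb gene on both chromosomes (Actb +/+, WT), on 1 chromosome (Actb +/-, Het) or on neither (Actb -/-, KO). Actb encodes β-actin, the cytoskeletal actin of non-muscle cells. Poly(A) RNA was sequenced from 4 WT, 4 Het and 3 KO libraries, numbered 1 to 4 within WT and Het and 1, 3 and 4 within KO. All cells were of BALB/c origin, came from 10.5 day embryos and were lysed at 70% confluence in serum-containing medium, with no treatment stated. The series text calls the samples biological replicates, but the labels do not say whether each had its own embryo or culture, or whether a genotype rests on 1 line. The p-values below therefore cover only how far these libraries differ from each other, a spread that may be technical.

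Collagen chains fold as trimers in the endoplasmic reticulum, are hydroxylated on proline and lysine, and leave the cell as procollagens. Fibrillar collagens then lose their propeptides and pack into the fibrils that give tissue its tensile strength. Network-forming collagens build the sheets of basement membranes, and FACITs, the fibril-associated collagens with interrupted triple helices, coat the surface of fibrils. The remaining chains form beaded filaments (type VI), anchoring fibrils (type VII), basement membrane collagens that carry sugar chains (types XV and XVIII) and transmembrane collagens. Of the 44 genes, 11 were fibrillar, 9 network-forming, 9 FACIT and 15 of the other kinds. They lay on 15 chromosomes, with 2 of them on X.

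Expression is given as FPKM, fragments per transcript length and library size, scaled between libraries. FPKM is a per-length unit, so levels of different genes can be set side by side. In bulk RNA, more cells of a type and more RNA per cell cannot be told apart. Actb read 1078 to 1535 FPKM in WT, 820 to 874 in Het and 44.9 to 47.3 in KO, and these ranges did not overlap. Relative sequencing depth, estimated from the steps between low FPKM values, lay between 60.7% and 125% of WT 1. For collagen genes above 5 FPKM, Cufflinks gave intervals whose median half-width in a library was 3.88% to 6.54%, which covers estimation error only. The WT libraries differed among themselves with the GC content of the transcripts, as described below, and that spread touches most collagen genes. Of 10 fibroblast markers, 9 reached 1 FPKM in at least 1 library, and lumican (Lum), a proteoglycan of collagen fibrils, stayed below 0.1 in every library. Vim, Pdgfrb, Prrx1, Twist1, Twist2, S100a4 and Fn1 were above 1 FPKM in every library. Thy1 was at most 0.0993 FPKM in WT and 0.844 in Het, against 1.88 to 2.45 in KO. Pdgfra read 0.160 to 0.233 FPKM in WT, 4.07 to 4.63 in Het and 0.780 to 1.17 in KO.

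Summed over all 44 genes, collagen mRNA was lowest in WT and highest in KO. The sum was 707 ± 219 FPKM in WT (SD, n = 4), 1171 ± 178 in Het (n = 4) and 1582 ± 270 in KO (n = 3). The 4 WT libraries ran from 507 to 999.8 FPKM, just below the Het range of 1012 to 1343, and the lowest KO library, at 1292, lay inside the Het range. No test was made on sums, because the gene set was chosen with results of these data known.

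The 4 classes did not follow the total in the same way. Fibrillar collagens summed to 314 ± 134 FPKM in WT, 705 ± 128 in Het and 813 ± 168 in KO. Network collagens were at 237 ± 46.5 FPKM in WT and 236 ± 22.8 in Het, against 458 ± 58.2 in KO. FACITs rested on few transcripts in every group, with sums of 31.5 ± 3.68, 43.3 ± 3.23 and 54.9 ± 3.45 FPKM. The other collagens summed to 124 ± 36.5, 187 ± 25.9 and 256 ± 41.6 FPKM. As a share of all collagen FPKM, the fibrillar class thus made up 43.4 ± 4.68% in WT, 59.96 ± 1.98% in Het and 51.2 ± 1.97% in KO. The network class made up 34.4 ± 3.64%, 20.3 ± 1.31% and 29.1 ± 1.42%.

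**Figure D1:**
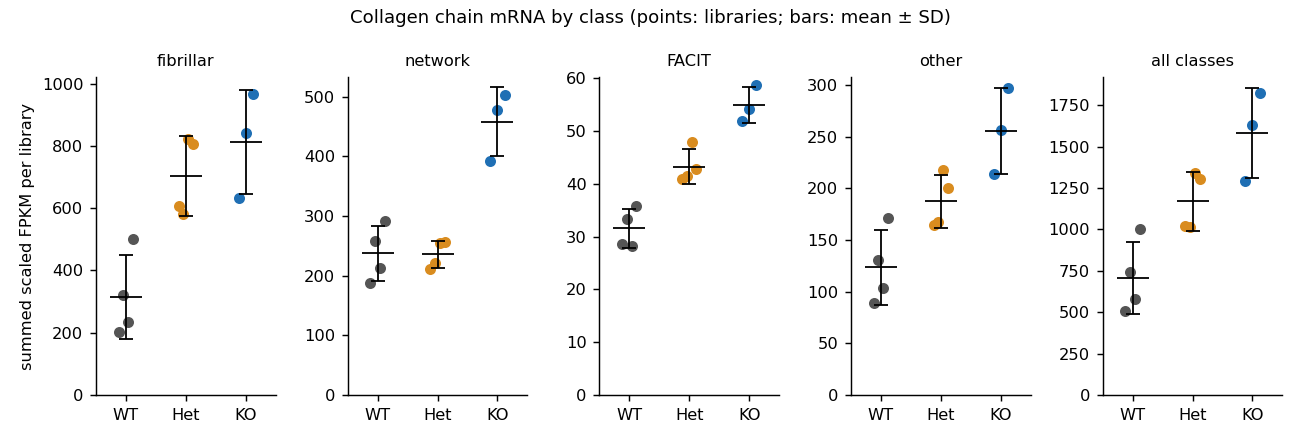
Summed scaled FPKM of the collagen genes of each class, and of all classes, in each library (points) of WT, Het and KO, with bars for the mean and SD. Network sums overlap between WT and Het and lie apart in KO (392.6 to 503.6 FPKM), whereas fibrillar sums of Het (581.9 to 823.6) and KO (633.4 to 965.7) overlap.

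A few genes made up most of each sum. Col1a1 led in every group. In WT the next 3 by mean FPKM were Col5a2, Col4a1 and Col6a1, in Het they were Col1a2, Col6a1 and Col4a1, and in KO they were Col4a1, Col6a1 and Col4a2. Col1a2 and Col3a1, the second and the sixth collagen mRNA of Het cells, were not among the 8 highest of WT or of KO.

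Differences between genotypes were tested with limma on log2(FPKM + 1) across all 14950 genes that reached 1 FPKM in at least 3 libraries, with Benjamini-Hochberg adjusted p under 0.05 as the threshold. Of the collagen genes 22 entered the test. Col11a1 passed the filter through WT alone, Col27a1 through KO alone, Col2a1 through WT and KO, and Col6a3 through Het and KO, so these 4 entered because of the groups in which they were high. Their calls and differences are part of the counts and medians below. In KO against WT, 14 collagen genes were higher, 3 were lower and 5 did not pass, while 23.3% of all tested genes were called higher and 24% lower (47.2% in all). In Het against WT, 9 were higher, 6 lower and 7 did not pass, against 21.9% of all genes higher and 21.9% lower (43.9% in all). In KO against Het, 9 were higher, 6 lower and 7 did not pass, against 21.8% higher and 22.6% lower (44.4% in all).

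The libraries of KO and WT did not overlap in 16 of the 22 collagen genes, 13 of them higher in KO and 3 lower, against 46.6% of all tested genes, 22.7% higher and 23.9% lower. Those of Het and WT did not overlap in 8 genes that were higher and 6 that were lower in Het, against 39.6% of all genes, 19.7% higher and 20% lower. Those of KO and Het did not overlap in 11 genes that were higher and 7 that were lower in KO, against 54% of all genes, 26.9% higher and 27.1% lower.

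The median log2 difference of the 22 genes was 0.66 in KO against WT, where that of all tested genes was 0.01. It was 0.20 against 0.01 in Het against WT, and 0.29 against 0.00 in KO against Het. These medians were taken without removal of the GC trend described below. The comparisons share libraries and are therefore not independent of each other. Without scaling between libraries the median of all genes was -0.08 in KO against WT and -0.09 in KO against Het. The share of calls that were higher then fell from 49.2% to 37.1% and from 49.1% to 36.5% over all genes, whereas the collagen genes stood at 13 higher and 3 lower in KO against WT, and at 9 and 6 in KO against Het. No collagen difference that passed the threshold changed sign without scaling or with upper quartile scaling.

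**Figure D2:**
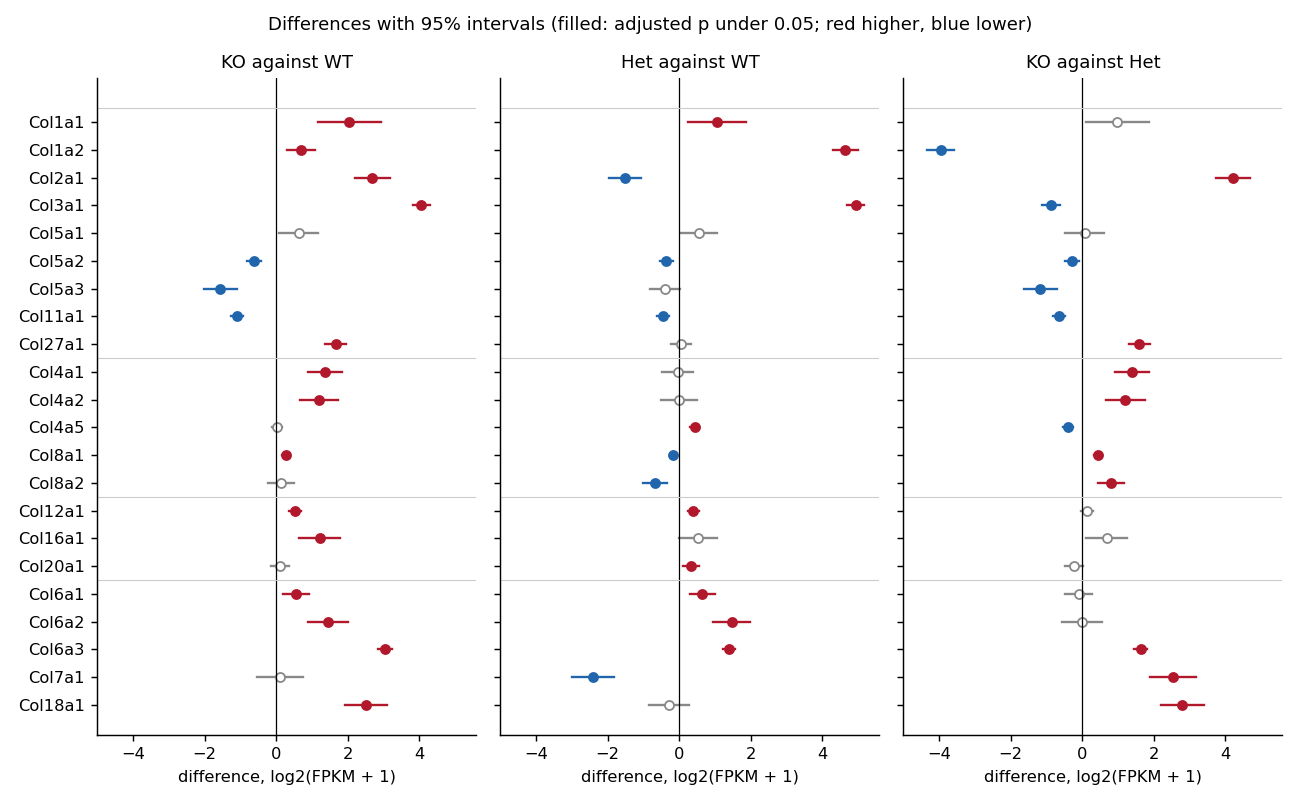
Log2 differences on the log2(FPKM + 1) scale with 95% intervals for the 22 tested collagen genes in KO against WT, Het against WT and KO against Het, with filled symbols for adjusted p under 0.05, red for higher, blue for lower and horizontal lines between classes. Col1a2 stands at 0.69, 4.65 and -3.95, and Col2a1 at 2.69, -1.52 and 4.21. Col11a1 entered the test through its WT libraries alone and Col27a1 through its KO libraries alone. Col2a1 entered through WT and KO, and Col6a3 through Het and KO.

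Within the fibrillar class, type I collagen is the main protein of fibroblast matrix and is usually a trimer of Col1a1 chains and a Col1a2 chain. Col1a1 (chr11:94936270-94951867, + strand) read 83.9, 169, 107 and 325 FPKM in WT, 264, 238, 386 and 394 in Het, and 467, 648 and 778 in KO. All KO libraries lay above all WT and Het libraries, while WT 4 lay inside the Het range. Col1a1 rose in KO against WT by 2.04 on the log2 scale (SE 0.40, adjusted p = 0.00157) and in Het against WT by 1.06 (SE 0.37, adjusted p = 0.0374). The call for Het did not hold without WT 1, WT 2, WT 3, Het 1, Het 3, Het 4 or KO 3, each left out in turn (adjusted p = 0.0511 to 0.0998), nor without the filter on low values (0.0883) or with only the Het and WT libraries in the fit (0.0586). KO against Het gave 0.98 (SE 0.40, adjusted p = 0.0684), and passed without WT 1 (adjusted p = 0.0404) or WT 4 (0.0124). It also passed with only the KO and Het libraries in the fit (adjusted p = 0.00825).

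Col1a2 did not go with Col1a1 (chr6:4505697-4541543, + strand). It read 5.62, 6.82, 5.41 and 9.58 FPKM in WT, 169, 170, 225 and 211 in Het, and 10.7, 13.2 and 10.7 in KO. The Het libraries were thus far above both other groups, and the KO libraries lay just above the WT range. Col1a2 rose by 4.65 in Het against WT (SE 0.16, adjusted p = 7.4e-09) and by 0.69 in KO against WT (SE 0.17, adjusted p = 0.00697), and it was lower in KO than in Het by 3.95 (SE 0.17, adjusted p = 2.8e-08). The ratio of Col1a1 to Col1a2 mRNA was 14.9 to 33.9 in WT, 1.40 to 1.86 in Het and 43.7 to 73.0 in KO, with no overlap between the groups.

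The promoters of Col1a2 and Col3a1 are shown because these are the fibrillar genes with the largest changes in Het. Each window runs from 250 bases before to 50 bases after the RefSeq start on GRCm38.p6, 5′ to 3′ on the gene's strand. It is chr6:4505368-4505667 (+) for Col1a2 and chr1:45311288-45311587 (+) for Col3a1. Capitals mark matches on either strand to the letters TATAAA of the TATA box, CCAAT of the box bound by NF-Y, GGGCGG of the GC box, TGANTCA of the AP-1 site, CAGACA of the SMAD box or CATTCC of the MCAT element. The marked matches do not overlap each other.
Col1a2: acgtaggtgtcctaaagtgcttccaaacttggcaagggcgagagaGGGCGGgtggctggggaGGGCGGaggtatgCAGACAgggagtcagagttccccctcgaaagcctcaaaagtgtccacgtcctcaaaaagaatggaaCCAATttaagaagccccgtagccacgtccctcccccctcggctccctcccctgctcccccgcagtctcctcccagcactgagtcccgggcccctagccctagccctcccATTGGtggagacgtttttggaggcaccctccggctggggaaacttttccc
Col3a1: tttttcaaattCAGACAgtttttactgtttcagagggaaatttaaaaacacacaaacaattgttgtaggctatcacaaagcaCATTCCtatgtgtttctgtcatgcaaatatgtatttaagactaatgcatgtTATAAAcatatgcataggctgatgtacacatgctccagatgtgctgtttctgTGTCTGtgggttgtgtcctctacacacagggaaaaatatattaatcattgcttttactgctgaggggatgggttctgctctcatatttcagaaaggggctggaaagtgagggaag

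The Col1a2 window held GGGCGG at positions -205 and -188 from the RefSeq start, CAGACA at -175 and CCAAT at -109, and the reverse complement of CCAAT at that start itself. The deposited Col1a2 locus starts at 4505697, beyond the end of this window at 4505667. Its positions would therefore be further upstream if counted from the deposited start. Of all 32851 promoter windows 35.7% held a GC box, 37.4% a CCAAT box and 21.0% a SMAD box. The Col3a1 window held CAGACA at -239, CATTCC at -168, TATAAA at -117 and the reverse complement of CAGACA at -65. TATA boxes occurred in 13.6% of all windows, MCAT elements in 14.7% and AP-1 sites, found in neither of these windows, in 7.81%. Such letter matches describe the sequence only and do not show that a factor binds. The 35 collagen symbols found in the promoter table had 38 windows, of which 23 (60.5%) held a GC box, 13 a CCAAT box, 9 a SMAD box, 5 a TATA box, 5 an MCAT element and 1 an AP-1 site.

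Type III collagen, a homotrimer of Col3a1 chains, forms the thin fibres of skin, vessels and other soft tissue and packs together with type I. Col3a1 (chr1:45311538-45349706, + strand) read 1.20, 1.44, 1.37 and 1.49 FPKM in WT, 65.4, 65.2, 83.9 and 72.9 in Het, and 39.7, 43.8 and 32.9 in KO. WT, KO and Het followed each other without overlap. The log2 differences were 4.93 in Het against WT (SE 0.10, adjusted p = 2.14e-10), 4.06 in KO against WT (SE 0.11, adjusted p = 6.21e-10) and -0.87 in KO against Het (SE 0.11, adjusted p = 8.69e-05).

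Col5a2 lies tail to tail with Col3a1, 24.6 kb away and with no other locus between them (chr1:45374331-45503282, - strand). Against WT its mRNA moved the other way, while both genes were lower in KO than in Het. Col5a2 read 86.6, 108, 92.4 and 110 FPKM in WT, 70.9, 73.9, 82.1 and 81.2 in Het, and 61.4, 65.2 and 63.8 in KO. The groups followed each other downwards without overlap. Col5a2 fell by 0.63 in KO against WT (SE 0.09, adjusted p = 0.000175) and by 0.36 in Het against WT (SE 0.08, adjusted p = 0.00515). It was also lower in KO than in Het by 0.27 (adjusted p = 0.028), a call lost without Het 3, Het 4 or any 1 of the KO libraries (adjusted p = 0.0551 to 0.0871). The ratio of Col3a1 to Col5a2 was 0.0134 to 0.0148 in WT, 0.883 to 1.02 in Het and 0.515 to 0.673 in KO.

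Type V collagen, made of Col5a1 chains with Col5a2 or Col5a3, starts the assembly of type I fibrils and limits their width. Col5a1 read 17.3, 24.6, 18.3 and 38.8 FPKM in WT, 30.4, 30.5, 39.6 and 40.5 in Het, and 30.4, 38.1 and 42.9 in KO. Its groups overlapped through WT 4, and neither the difference of 0.63 in KO against WT (95% interval 0.09 to 1.17, adjusted p = 0.0563) nor that of 0.55 in Het against WT (0.05 to 1.05, adjusted p = 0.0705) passed. Without WT 4 both passed, at 0.86 (adjusted p = 0.00195) and 0.79 (0.00255). Col5a3 read 4.07, 5.47, 4.49 and 8.91 FPKM in WT, 3.89, 3.27, 4.19 and 4.63 in Het, and 1.11, 0.996 and 1.55 in KO. The KO libraries were below all others, and Col5a3 fell by 1.56 in KO against WT (SE 0.21, adjusted p = 0.000106). Het against WT gave -0.39 (adjusted p = 0.126), with overlapping libraries. The ratio of Col5a3 to Col5a1 took separate ranges in the 3 groups, 0.222 to 0.245 in WT, 0.106 to 0.128 in Het and 0.0261 to 0.0366 in KO.

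**Figure D3:**
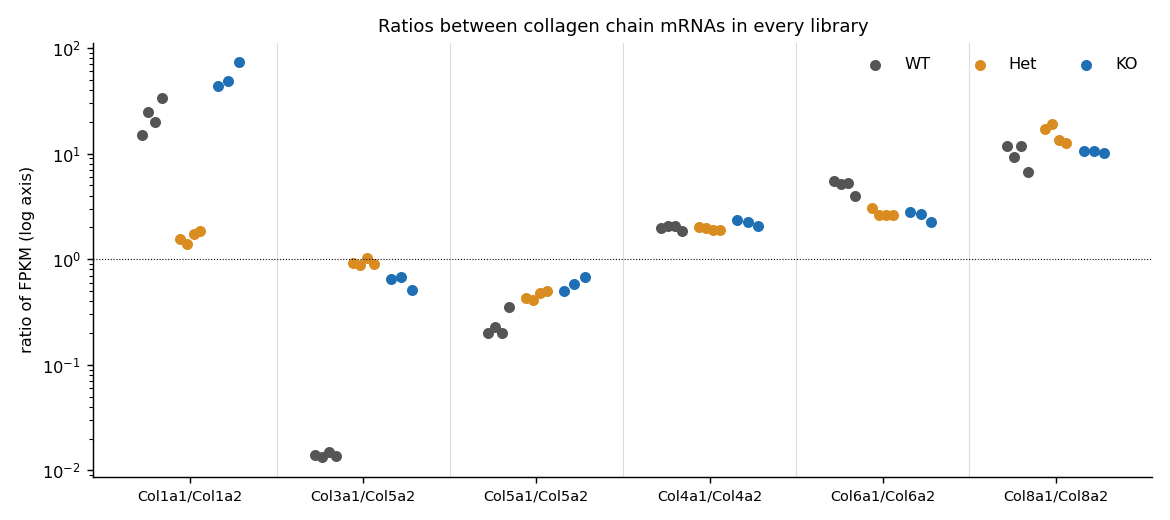
Ratio of FPKM between collagen mRNAs whose chains join in a trimer or whose genes are neighbours, in every library, on a log axis, with a dotted line at 1. Col1a1/Col1a2 and Col3a1/Col5a2 lie apart in the 3 groups, whereas Col4a1/Col4a2 stays between 1.83 and 2.34 in all libraries.

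Type II collagen (Col2a1) and type XI collagen (Col11a1, Col11a2) build cartilage fibrils together. Col2a1 read 1.99, 2.94, 2.76 and 5.10 FPKM in WT, 0.515, 0.236, 0.441 and 0.479 in Het, and 19.9, 25.9 and 31.0 in KO. The 3 groups were separate, with Het lowest and KO highest, and Col2a1 passed the filter through WT and KO. Col2a1 rose by 2.69 in KO against WT (SE 0.22, adjusted p = 2.67e-06). It is also among the genes called lower in Het against WT. Because it was tested through its WT and KO libraries, no test is given for that fall. Col11a1 was lower in Het than in WT and lower again in KO, with 1.08 to 1.29 FPKM in WT, 0.505 to 0.672 in Het and at most 0.0353 in KO, and it was listed at 0 in KO 4. Col11a1 is among the genes called lower in Het and in KO against WT. It was tested because of its WT libraries alone, so no test is given for these falls. Col11a2, summed over 4 loci that share the symbol, was not tested and read 0.244 to 0.719 FPKM in WT, 0.178 to 0.326 in Het and 0.629 to 1.10 in KO.

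Of 10 chondrocyte markers beside these genes, 2 reached 1 FPKM in any library, Sox9 and AW551984. Matn1 and Hapln1, matrix genes of cartilage, were listed at 0 in all libraries. Aggrecan (Acan) stayed at or below 0.067 FPKM. The marker sum was 2.16 to 3.12 FPKM in WT, 6.30 to 7.70 in Het and 3.42 to 4.53 in KO. Mean Sox9 was 1.48 FPKM in WT, 4.20 in Het and 1.83 in KO, and mean AW551984 was 0.0056, 0.980 and 0.0230. Sox5 was at 0.0592, 0.515 and 0.523 FPKM. The part of chondrocyte-like cells in the Col2a1 values was not tested.

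Col27a1 and Col24a1 encode minor fibrillar chains. Col27a1 read 0.303 to 0.588 FPKM in WT and 0.327 to 0.682 in Het, against 2.69, 4.33 and 3.77 in KO. Col27a1 is among the genes called higher in KO against WT. It was tested because of its KO libraries alone, so no test is given for that difference. Het against WT gave 0.06 (adjusted p = 0.729). Col24a1 was not tested and was at most 0.653 FPKM, its highest value, in Het.

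**Figure D4:**
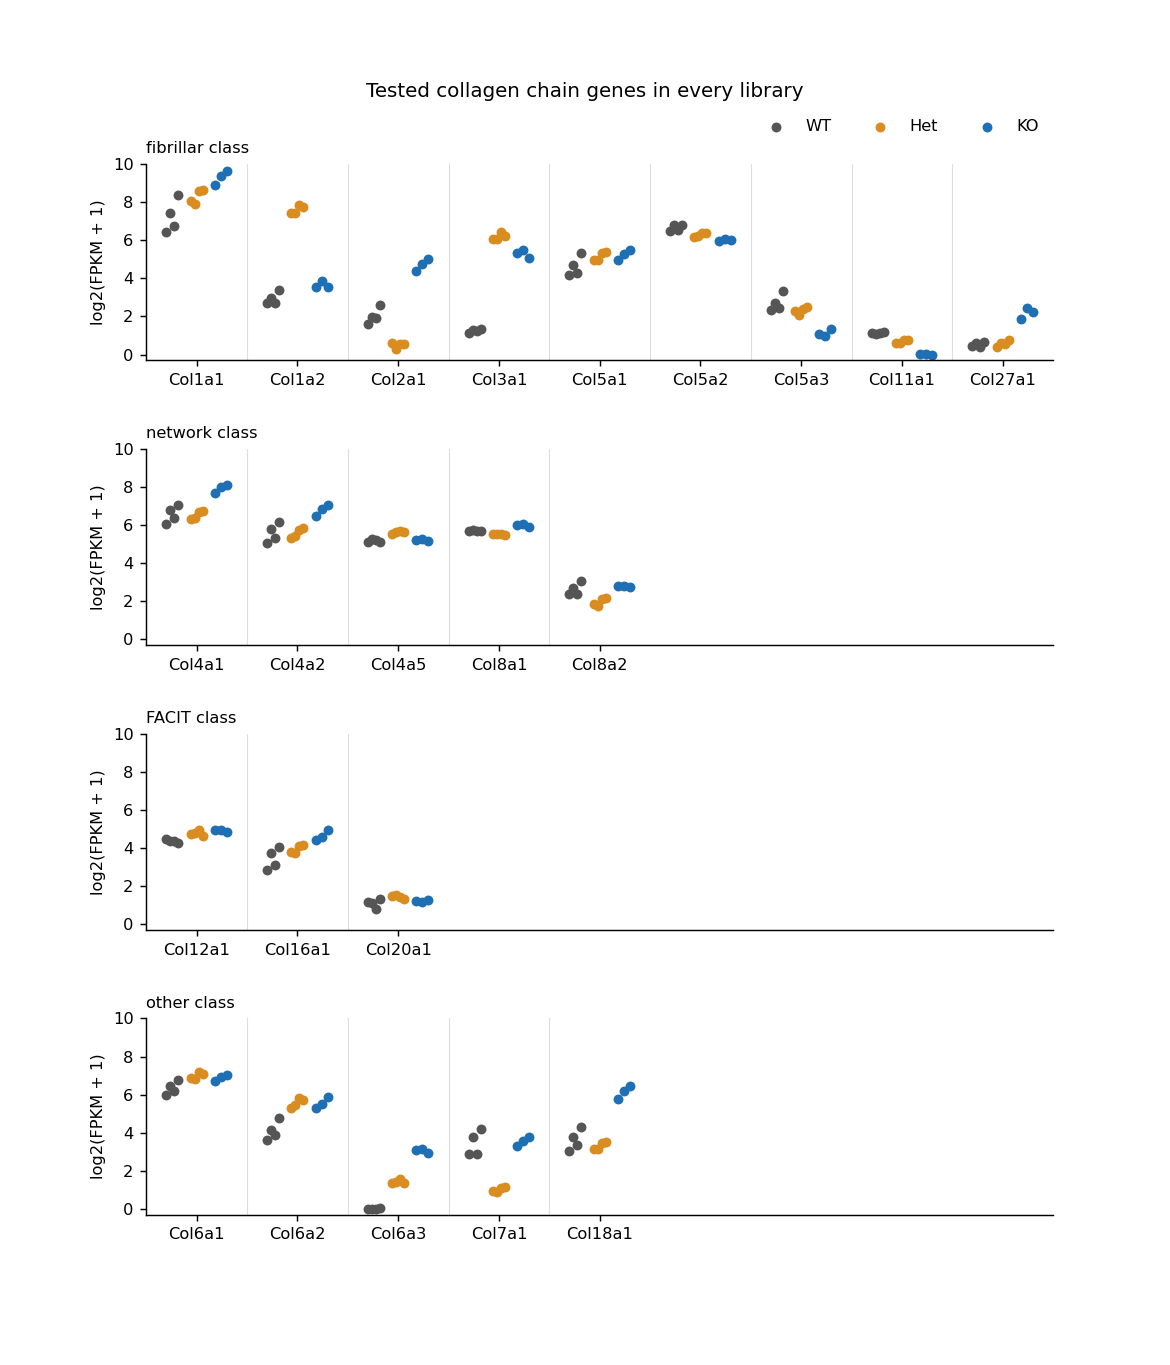
log2(FPKM + 1) of the 22 tested collagen genes in every library, by class, with WT in grey, Het in orange and KO in blue and libraries in numerical order from left to right within a group. Col1a2 and Col7a1 show Het apart from both other groups, and Col4a1, Col4a2, Col18a1 and Col27a1 show KO apart from WT and Het.

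Among network collagens, Col4a1 and Col4a2 encode the chains of the type IV trimer found in nearly all basement membranes. Col4a1 (chr8:11198423-11312826, - strand) read 64.9, 110, 81.6 and 130 FPKM in WT, 78.4, 82.3, 101 and 105 in Het, and 202, 256 and 271 in KO. Col4a2 (chr8:11312829-11449287, + strand) read 32.6, 53.3, 39.4 and 70.9 FPKM in WT, 39.2, 41.3, 52.8 and 55.3 in Het, and 86.4, 114 and 133 in KO. For both genes the Het libraries fell inside the WT range and the KO libraries lay above it. Col4a1 rose by 1.36 in KO against WT (SE 0.21, adjusted p = 0.000361) and Col4a2 by 1.20 (SE 0.24, adjusted p = 0.00208). Het against WT gave -0.04 (95% interval -0.47 to 0.40, adjusted p = 0.9) and -0.01 (-0.51 to 0.49, adjusted p = 0.979).

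The deposited loci of Col4a1 and Col4a2 lie head to head with 2 bases between them, and their mRNA ratio was 1.83 to 2.07 in WT, 1.89 to 1.999 in Het and 2.04 to 2.34 in KO. Their RefSeq promoter windows (GRCm38.p6, chr8:11312777-11313076 on the - strand and chr8:11312555-11312854 on the + strand) are shown because they overlap. Capitals mark the 78 bases they share, read on opposite strands.
Col4a1: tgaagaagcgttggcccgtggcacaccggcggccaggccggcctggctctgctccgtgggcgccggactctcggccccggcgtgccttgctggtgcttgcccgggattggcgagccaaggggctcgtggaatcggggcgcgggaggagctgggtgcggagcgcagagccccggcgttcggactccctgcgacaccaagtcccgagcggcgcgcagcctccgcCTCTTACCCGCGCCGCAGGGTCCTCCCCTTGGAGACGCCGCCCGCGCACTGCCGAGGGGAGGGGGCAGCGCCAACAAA
Col4a2: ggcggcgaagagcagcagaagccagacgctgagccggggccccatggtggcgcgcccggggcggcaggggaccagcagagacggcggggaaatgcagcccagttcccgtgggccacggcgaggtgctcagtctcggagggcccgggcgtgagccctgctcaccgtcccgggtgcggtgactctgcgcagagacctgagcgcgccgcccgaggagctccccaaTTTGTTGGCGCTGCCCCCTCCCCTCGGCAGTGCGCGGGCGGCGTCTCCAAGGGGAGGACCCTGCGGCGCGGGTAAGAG

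The shared stretch, chr8:11312777-11312854, holds a GC box on either reading, GGGCGG in the Col4a2 window at position 8 from its start and CCGCCC in the Col4a1 window at position 10. A CCAAT box lay at -145 of Col4a1, as its reverse complement, and at -32 of Col4a2. Positions count from the RefSeq starts, which have 20 bases between them, whereas the deposited loci have 2. No TATA box was found by its letters in either window.

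Col4a5 and Col4a6, another head-to-head pair with 1292 bases between the loci on the X chromosome, encode chains of the type IV trimers of smooth muscle and other basement membranes. Col4a5 read 33.9, 37.6, 36.3 and 33.4 FPKM in WT, 44.4, 49.2, 50.7 and 47.7 in Het, and 35.8, 37.5 and 34.8 in KO. The Het libraries stood above all others, and WT and KO overlapped. Col4a5 rose by 0.43 in Het against WT (SE 0.06, adjusted p = 0.00016), and KO against WT gave 0.03 (95% interval -0.11 to 0.17, adjusted p = 0.731). Col4a6 was too low to test, with 0.153 to 0.272 FPKM in WT, 0.640 to 0.942 in Het and 0.347 to 0.535 in KO. Xist, the RNA of the inactive X chromosome, read 44.1 to 51.5 FPKM in Het and at most 0.0585 in WT and KO, and the Y-linked genes Ddx3y, Kdm5d, Eif2s3y and Uty were at most 0.269 in all libraries. The Het libraries thus differed from WT and KO in X-chromosome state as well as in genotype. The part of this difference in the values of Col4a5, Col4a6 and all other collagen genes was not tested. Col4a3 and Col4a4, the chains of the kidney glomerulus with Col4a5, stayed below 0.1 FPKM in every library.

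Type VIII collagen (Col8a1, Col8a2) forms hexagonal sheets under endothelia, such as that of the cornea. Col8a1 varied least within WT of the tested collagen mRNAs, with 51.0, 51.6, 50.8 and 49.9 FPKM, against 45.2, 45.7, 45.6 and 43.8 in Het and 62.2, 64.6 and 58.7 in KO. The groups did not overlap, and Col8a1 rose by 0.28 in KO against WT (SE 0.05, adjusted p = 0.000678) and fell by 0.17 in Het against WT (SE 0.04, adjusted p = 0.00948). Col8a2 read 4.29, 5.57, 4.28 and 7.47 FPKM in WT, 2.65, 2.41, 3.41 and 3.47 in Het, and 5.88, 6.05 and 5.78 in KO. It fell by 0.67 in Het against WT (SE 0.15, adjusted p = 0.00456), and KO libraries lay within the WT range. Col10a1, the short chain of hypertrophic cartilage, was at most 0.316 FPKM.

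In the FACIT class, 3 of 9 genes were expressed high enough to test. Col12a1, a long chain on fibrils of tendon and other dense connective tissue, read 21.3, 19.9, 19.9 and 18.4 FPKM in WT, 25.8, 26.4, 29.4 and 24.01 in Het, and 29.9, 29.9 and 27.6 in KO. Its WT libraries were lowest, and it rose by 0.39 in Het against WT (SE 0.07, adjusted p = 0.000992) and by 0.53 in KO against WT (SE 0.07, adjusted p = 0.000167). Col16a1 read 6.10, 12.1, 7.59 and 15.7 FPKM in WT, 12.9, 12.6, 16.4 and 16.7 in Het, and 20.4, 22.9 and 29.5 in KO. The KO libraries lay above all others, and WT 4 lay inside the Het range. Col16a1 rose by 1.22 in KO against WT (SE 0.26, adjusted p = 0.00285), while Het against WT gave 0.53 (adjusted p = 0.101) and passed without WT 4 (0.74, adjusted p = 0.013). KO against Het gave 0.69 (adjusted p = 0.0534), and passed without WT 1 (adjusted p = 0.0236) or WT 4 (0.0181). It also passed with only the KO and Het libraries in the fit (adjusted p = 0.00519).

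Col16a1 is listed at a primary and an alternate locus, and reads may have been split between them. The primary locus had 0.742 to 0.826 times the FPKM of the alternate one in WT, 1.01 to 1.11 times in Het and 0.733 to 0.761 times in KO. With the primary locus alone, Het against WT passed for Col16a1 at 0.67 (adjusted p = 0.0265). Col20a1 read 0.761 to 1.51 FPKM in WT, 1.51 to 1.91 in Het and 1.26 to 1.41 in KO. It rose in Het against WT by 0.34 (SE 0.11, adjusted p = 0.0241), which did not hold without WT 3, Het 1 or Het 2 (adjusted p = 0.052 to 0.0658). The others were low: Col22a1 read 0.175 to 0.264 FPKM in Het and at most 0.041 elsewhere, Col9a3 at most 0.280, Col14a1 at most 0.212, Col9a2 and Col19a1 below 0.1, and Col9a1 was listed at 0 in all libraries.

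Type VI collagen forms beaded filaments around cells from trimers of Col6a1, Col6a2 and a further chain, most often Col6a3. Col6a1 read 62.1, 86.7, 72.4 and 106 FPKM in WT, 115, 113, 147 and 135 in Het, and 105, 120 and 131 in KO. Het lay above WT, while WT 4 lay just above the lowest KO library. Col6a1 rose by 0.65 in Het against WT (SE 0.15, adjusted p = 0.00579) and by 0.55 in KO against WT (SE 0.17, adjusted p = 0.0186). The KO call was lost without KO 3 (adjusted p = 0.0552), without KO 4 (0.0739) and without scaling between libraries (0.0552).

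Col6a2, 85.2 kb from Col6a1 on chromosome 10, read 11.3, 16.7, 13.7 and 26.7 FPKM in WT, 37.9, 43.3, 56.3 and 51.6 in Het, and 37.9, 45.3 and 57.8 in KO. Het and KO overlapped, and both lay above WT. Col6a2 rose by 1.47 in Het against WT (SE 0.23, adjusted p = 0.000481) and by 1.46 in KO against WT (SE 0.25, adjusted p = 0.000707), and KO against Het gave -0.01 (95% interval -0.57 to 0.54, adjusted p = 0.973).

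Col6a3 was close to absent from WT (chr1:90766860-90843971, - strand). It read 0.0224, 0, 0.0180 and 0.0358 FPKM in WT, 1.59, 1.67, 1.98 and 1.56 in Het, and 7.54, 7.93 and 6.76 in KO. The groups were separate, in the order WT, Het and KO, and Col6a3 passed the filter through Het and KO. Col6a3 is among the genes called higher in Het and in KO against WT. It was tested because of its Het and KO libraries, so no test is given for its differences from WT. In KO against Het, where both groups reached 1 FPKM, Col6a3 was higher by 1.64 (SE 0.08, adjusted p = 7.95e-08). Its level relative to Col6a1 was at most 0.000361 in WT, 0.0115 to 0.0148 in Het and 0.0518 to 0.0718 in KO. The genes of the chains that can take the place of Col6a3 lie in a row on chromosome 9 and were not tested. Col6a5 read 0.455 to 0.628 FPKM in WT and at most 0.0598 in Het and KO, Col6a4 0.110 to 0.159 in WT and at most 0.0501 in Het and KO, and Col6a6 stayed below 0.1 throughout.

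Type VII collagen (Col7a1) makes the fibrils that anchor epithelium to the tissue below. Col7a1 read 6.36, 12.6, 6.36 and 17.6 FPKM in WT, 0.922, 0.857, 1.12 and 1.27 in Het, and 8.99, 10.8 and 12.8 in KO. The Het libraries lay below all others and the KO libraries inside the WT range. It fell by 2.41 in Het against WT (SE 0.27, adjusted p = 3.96e-05) and was higher in KO than in Het by 2.53 (SE 0.29, adjusted p = 4.26e-05). KO against WT gave 0.12, with a 95% interval of -0.52 to 0.76 (adjusted p = 0.769).

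Types XVIII and XV are close relatives that sit in basement membranes, and a fragment of Col18a1 is endostatin. Col18a1 read 7.21, 12.9, 9.12 and 18.8 FPKM in WT, 8.05, 7.79, 10.3 and 10.5 in Het, and 53.3, 70.9 and 87.3 in KO. Every KO library was above every other library, and WT and Het overlapped. Col18a1 was higher in KO than in WT by 2.51 (SE 0.27, adjusted p = 2.31e-05) and higher than in Het by 2.80 (SE 0.27, adjusted p = 1.14e-05). Col15a1 was not tested. It read at most 0.0391 FPKM in WT, 0.266 to 0.392 in Het and 0.917 to 1.33 in KO.

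Of the transmembrane and remaining collagens, Col23a1 was the highest. This transmembrane chain was not tested and read 0.778 to 1.35 FPKM in WT, 0.377 to 0.448 in Het and at most 0.149 in KO, with no overlap between the groups. Col13a1, Col17a1, Col25a1 and Col26a1 stayed near or below 0.1 FPKM, and Col28a1 was listed at 0 in all WT libraries and was at most 0.171 elsewhere. Of the 22 genes not tested, 19 were below 1 FPKM in every library and 9 were below 0.1.

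Set against markers of other cells, the KO libraries stood apart in the sum of smooth muscle genes, though not in every member. Of 8 such markers 7 reached 1 FPKM in at least 1 library. The sum of the 8 was 98.8 to 118 FPKM in WT, 241 to 257 in Het and 7371 to 8162 in KO. Acta2, smooth muscle actin, made up 6022 to 6802 of the KO sum. Like Acta2, the genes Actg2, Tagln, Cnn1 and Lmod1 stood far above both other groups in KO. Myh11 stayed below 1 FPKM in every library (0.875 to 0.992 in KO). Smtn overlapped between KO and WT, and Des averaged 1.15 FPKM in Het and 1.21 in KO. Fibroblast markers summed to 1404 to 1624 FPKM in WT, 1960 to 2112 in Het and 3137 to 3485 in KO. Of 9 osteoblast markers 3 reached 1 FPKM, Ibsp was listed at 0 throughout, and the sum was 16.3 to 17.8, 45.5 to 51.1 and 75.3 to 93.8 FPKM. These sums moved with the collagen total, and their part in the collagen values was not tested. No endothelial marker of 8 reached 1 FPKM, with Tie1, Emcn and Cldn5 listed at 0 throughout and sums of 0.133 to 0.267 FPKM in WT, 0.148 to 0.364 in Het and 0.581 to 0.619 in KO. Epithelial markers, 2 of 8 at 1 FPKM, summed to 3.02 to 7.55, 5.50 to 9.58 and 0.850 to 1.06 FPKM. Macrophage and blood markers, 1 of 7 at 1 FPKM and Ptprc, Emr1 and Hbb-bt at 0, summed to at most 4.99 FPKM.

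Much of the spread among WT libraries followed transcript GC content. The median of genes above 57.6% GC, less that of genes below 41.4% GC, deviated from the group mean by -0.54 (log2) in WT 1 and 0.67 in WT 4, against -0.23 to 0.25 in Het and KO libraries. From the mean of all libraries, it deviated by -0.66 to 0.56 in WT, -0.22 to 0.21 in Het and -0.08 to 0.42 in KO. The tested collagen transcripts are rich in GC, with a median of 57.2% against 49.7% for all tested genes. WT 4 was the highest WT library in 19 of 22 collagen genes, against 33.0% of all genes, and WT 1 the lowest in 13, against 32.9%. Col8a1 and Col12a1, with 46.8% and 48.3% GC, varied 1.03-fold and 1.16-fold within WT, and Col1a1, with 58.9%, varied 3.87-fold.

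Removing the GC trend from each library, an alternative chosen after the data had been seen, narrowed the WT range of Col1a1 to 2.17-fold, of Col18a1 from 2.60-fold to 1.23-fold, of Col4a2 from 2.17-fold to 1.12-fold and of Col7a1 from 2.76-fold to 1.46-fold. The range narrowed in 16 of the 21 genes with values above 0 in every WT library, and it widened for Col27a1 (from 1.94-fold to 4.21-fold), Col11a1 (1.20 to 1.29), Col8a1 (1.03 to 1.10), Col5a2 (1.27 to 1.29) and Col4a5 (1.13 to 1.15). Among genes called higher in KO against WT, the difference became smaller in all but Col8a1 and Col12a1. It went from 2.04 to 1.84 for Col1a1, 2.51 to 2.26 for Col18a1, 1.22 to 0.95 for Col16a1 and 1.20 to 0.95 for Col4a2. For Col8a1 it went from 0.28 to 0.34 and for Col12a1 from 0.53 to 0.58. With the trend removed, Col5a1 passed in KO against WT (0.45, adjusted p = 0.00418) and in Het against WT (0.46, adjusted p = 0.00244). In Het against WT, Col16a1 (0.38, adjusted p = 0.00079), Col5a3 (-0.54, adjusted p = 0.000111) and Col18a1 (-0.43, adjusted p = 0.000591) passed as well, and Col20a1 no longer did (adjusted p = 0.0666). In KO against Het, Col1a1 (0.89, adjusted p = 0.00816), Col16a1 (0.57, adjusted p = 7.32e-05) and Col12a1 (0.17, adjusted p = 0.044) passed. Among differences that passed before or after, none changed sign, whereas small ones that did not pass, such as Col7a1 in KO against WT (0.12 before, -0.15 after), did. The origin of the GC trend was not tested.

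**Figure D5:**
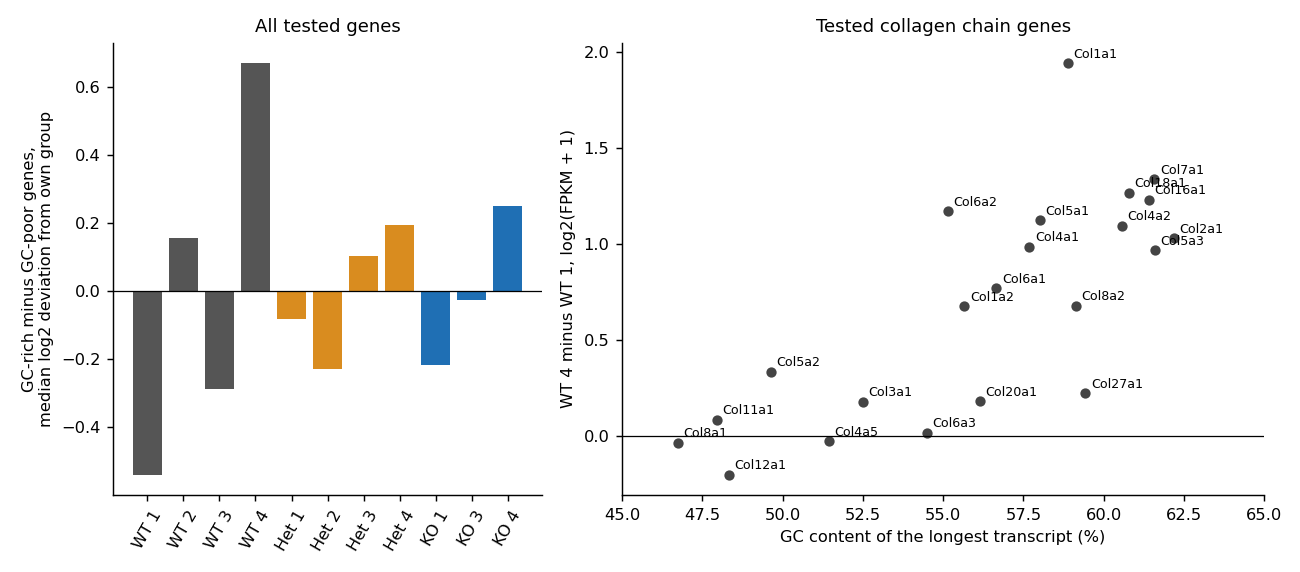
Left, median log2 deviation from the own group's mean of GC-rich genes (above 57.6% GC) minus GC-poor genes (below 41.4%), by library, from -0.54 in WT 1 to 0.67 in WT 4. Right, difference between WT 4 and WT 1 in log2(FPKM + 1) of the 22 tested collagen genes against the GC content of their longest transcript in percent, with Col8a1 and Col12a1 near or below 0 and Col1a1 at 1.94.

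Genes that make collagen changed with genotype in part, and each count is set beside the share of all tested genes called in the same comparison. Of 18 tested genes for chain hydroxylation and folding, 5 were higher and 2 lower in KO against WT (all genes 23.3% and 24%), and 5 were higher and 8 lower in Het against WT (all genes 21.9% and 21.9%). The count of higher genes is thus near the share of all genes in both comparisons. P4ha3, a prolyl hydroxylase subunit, was at 2.15 ± 0.27 FPKM in WT, 6.30 ± 0.51 in Het and 11.04 ± 0.12 in KO and rose by 1.94 in KO (adjusted p = 2.67e-08) and 1.21 in Het (adjusted p = 7.75e-07). Serpinh1, the collagen chaperone HSP47, rose by 0.86 in KO against WT (adjusted p = 0.00811) and P3h4, a partner of lysyl hydroxylation, by 0.70 (adjusted p = 8.38e-05). Plod2, which hydroxylates lysine of the telopeptides for cross-links, fell by 1.47 in Het against WT, from 45.6 ± 5.9 to 15.7 ± 0.72 FPKM (adjusted p = 3.93e-07). Of 12 tested procollagen export genes, 6 were higher and 4 lower in KO (all genes 23.3% and 24%), and 3 were higher and 3 lower in Het, near the 21.9% of all genes in each direction. The largest changes in KO were in Sec31a, a coat protein of export vesicles (0.93, adjusted p = 1.36e-07), Creb3l1, a transcription factor of secretory genes (0.85, adjusted p = 0.00593), and Trappc2, a tethering factor (-0.68, adjusted p = 0.000937). In Het they were in Ctage5 (0.56, adjusted p = 0.000213) and Creb3l1 (0.56, adjusted p = 0.0345).

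Of 6 tested genes for propeptide removal, 4 were higher and none lower in KO against WT (all genes 23.3% and 24%), and 1 was higher and 1 lower in Het (all genes 21.9% each way). Of the 4, Adamts2 and Tll1 reached 1 FPKM in KO libraries alone and so were tested because they were high there; their values are given without a test. Adamts2, which removes the amino-terminal propeptide, was at 0.392 ± 0.079 FPKM in WT, 0.650 ± 0.101 in Het and 7.43 ± 0.89 in KO. Tll1, a protease of the carboxy-terminal propeptide, was at 0.307 ± 0.019, 0.226 ± 0.052 and 5.24 ± 0.60 FPKM. Pcolce, which enhances that cleavage, rose by 0.78 in KO against WT (adjusted p = 0.0125). Pcolce2 fell by 0.55 in Het (adjusted p = 0.00037).

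All 6 tested collagen receptor genes passed in KO against WT, 5 higher and 1 lower (47.2% of all genes passed), and 1 was higher and 2 lower in Het (43.9% of all genes passed). Itga11, an integrin subunit that binds fibrillar collagen, was at 0.193 ± 0.046 FPKM in WT, 0.213 ± 0.122 in Het and 9.77 ± 0.83 in KO. It is among the 5 and was tested because of its KO libraries alone, so no test is given for it. The discoidin domain receptors went opposite ways in KO, with Ddr1 higher by 1.36 (adjusted p = 0.0049) and Ddr2 lower, at -3.09 (adjusted p = 1.16e-08). Itga1, an integrin subunit that prefers type IV collagen, was at 1.51 ± 0.27 FPKM in WT, 0.246 ± 0.060 in Het and 2.98 ± 0.21 in KO. It is among the genes called lower in Het. Because it passed the filter through WT and KO, no test is given for that fall. Mrc2, which takes up collagen fragments, rose by 0.74 in Het against WT (adjusted p = 0.00517). Of 5 tested degradation genes, 3 were higher in KO (all genes 23.3%) and 4 in Het (all genes 21.9%), and none was lower in either. The proteases Mmp16 (1.02, adjusted p = 1.35e-05), Mmp14 (0.85, adjusted p = 2.36e-06) and Mmp2 (0.22, adjusted p = 0.0315) rose in KO, and Mmp2 (0.89, adjusted p = 3.04e-06) rose in Het. Mmp13, counted among the 4, was tested because of Het libraries alone and was at 0.0154 ± 0.0308 FPKM in WT, 1.31 ± 0.45 in Het and 0.118 ± 0.076 in KO.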

How the data were processed

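RNA of 11 libraries was measured by sequencing of stranded mRNA libraries. The deposited FPKM are estimates made by the authors with Cufflinks 2.2.1 from TopHat2 2.1.0 alignments to GRCm38.p4, per the submitters' processing notes, which also name Cuffdiff. No read counts are in the tables used, so count models were not applied. FPKM of loci sharing a symbol were summed. Scaling used the median of ratios, taken across 13611 genes, with factors from 0.939 to 1.04. Genes at 1 FPKM or more in at least 3 libraries (14950) were fitted as log2(FPKM + 1) in limma 3.58.1 (R 4.3.3). The model had a mean for each group, a shared spread and a mean-variance trend. Tests were two-sided, with Benjamini-Hochberg adjustment over all genes and a threshold of 0.05. Differences on this scale understate changes of low genes. Tables and figures were made with Python 3.11.15, pandas 2.3.3, numpy 2.4.6 and matplotlib 3.10.9. The fit was tested on simulated data.

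Every collagen gene is accounted for, by library where a group mean reached 5 FPKM. Of each related list, up to 3 genes with the largest called difference in KO against WT and up to 2 in Het against WT are named. Members and lists were chosen with earlier results of these data known. Coordinates are those of the deposited tables (GRCm38, counted from 1), and promoter sequences are from RefSeq (GRCm38.p6). The alternatives were other scalings, pseudocounts, filters and fits, a replicate block, removal of the GC trend and leaving out each library. A further KO sample that the submitters excluded after quality control was not analysed here.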

Additional observations from a re-analysis of the deposited data

Results flagged for a closer look

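The ratio of Col6a1 to Col6a2 mRNA was 3.03 in Het 1, while the other 3 Het libraries lay between 2.60 and 2.61, so the value of Het 1 stood far from its group. Of 74 groups of 4 libraries checked in this way it was the only one to stand out, and chance flags about 1 group in 20. The levels of both genes in Het 1 lay within the range of the other Het libraries or just below it, at 115 FPKM for Col6a1 and 37.9 FPKM for Col6a2.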

How the results depend on the processing

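Over 23 alternatives, 1506 differences of single collagen genes were recomputed, of which 1449 kept their side of the threshold, 23 lost it and 34 gained it. No difference past the threshold changed sign, while some small ones that did not pass did. The genes that crossed it were Col1a1, Col5a1, Col5a2, Col5a3, Col6a1, Col12a1, Col16a1, Col18a1, Col20a1 and Col4a2. The count of collagen genes lower in KO against WT, 3 as reported, was 6 without a filter and 1 with a filter at 5 FPKM, where more or fewer genes were tested. Counting the primary locus alone, FACIT sums were 25.7 FPKM in WT, 36.1 in Het and 41.1 in KO, since the alternate locus of Col16a1 is then left out.

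With each library left out in turn, KO against WT had 13 to 15 collagen genes higher, 3 lower and 5973 to 7947 genes called in all. Het against WT had 7 to 11 higher, 6 lower and 5705 to 7365 in all, and KO against Het had 9 to 11 higher, 5 to 6 lower and 5653 to 7324 in all. Same-numbered libraries did not deviate together in every pair (r from -0.10 to 0.35), and not every library correlated best with its own number, so the replicate numbers were not taken as pairs. Pairs of different numbers ran from -0.40 to 0.18. The highest values were in same-numbered pairs, WT 4 with KO 4 (0.35), WT 1 with KO 1 (0.33), WT 4 with Het 4 (0.26) and Het 4 with KO 4 (0.25). With the replicate number as a block, 15 collagen genes were higher and 3 lower in KO against WT (7296 genes called), 11 and 6 in Het against WT (7003) and 11 and 6 in KO against Het (6888). The block gained Col5a1 in KO against WT (adjusted p = 0.0228) and Het against WT (0.0218), Col16a1 in Het against WT (0.0393) and KO against Het (0.0204) and Col1a1 in KO against Het (0.0315), and changed no other collagen call. FPKM under about 0.1 rest on few reads, and zeros there give no fold.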
